A study of Mus musculus with 8 samples.

Results

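The genes described here are the ErbB receptors Egfr, Erbb2, Erbb3 and Erbb4, the neuregulins Nrg1 and Nrg4, and the ligand Hbegf, 7 genes chosen by name. Of these, 5 have a row among the 11704 genes of the expression table, namely the 4 receptors and Hbegf. Nrg1 and Nrg4 were not analysed here, and every gene in the table had a mean of at least 0.501 in the higher of the 2 groups. RNA sequencing was done on 8 samples of mouse hearts. For 4 of them the newborn animals had received, under the skin, adeno-associated virus serotype 9 with the mouse Fgf17 gene (AAV-FGF17). For the other 4 it was the control vector of that virus. Both groups therefore carry a vector, and hearts were taken at 8 to 10 weeks of age. Strain, sex and the promoter of the vector are not given in the sources used here. The column headers call both groups sham, and whether the hearts were operated on is not stated. Values are FPKM, fragment numbers scaled to the length of the transcript and to the size of the library, so levels of different genes can be compared per length.

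ErbB receptors are tyrosine kinases of the cell surface that work in pairs. EGFR binds EGF-type ligands such as HB-EGF, ErbB3 and ErbB4 bind neuregulins, and ErbB2 binds no known ligand and serves as the partner of the others. In the heart, neuregulin-1 from the endothelium and endocardium acts on ErbB4 and ErbB2 of cardiomyocytes, and mice without either receptor fail to form ventricular trabeculae. ErbB3 is known from glial and neural crest cells and from the mesenchyme of the endocardial cushions. It has little kinase activity of its own and signals through its partners.

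The coding sequence of the receptors shows how ErbB3 differs from the others in a part of the kinase domain. The stretches below run from the codon of the lysine that binds ATP to the codon of the helix residue that pairs with it in an active kinase, and that last codon is in capitals. Each was read from the longest coding transcript of GENCODE M21 on GRCm38.
Egfr: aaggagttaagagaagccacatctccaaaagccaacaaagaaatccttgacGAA
Erbb2: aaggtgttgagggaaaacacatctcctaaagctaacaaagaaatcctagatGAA
Erbb3: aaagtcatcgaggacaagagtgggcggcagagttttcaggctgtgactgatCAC
Erbb4: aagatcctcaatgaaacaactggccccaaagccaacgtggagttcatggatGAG
The last codon reads glutamate in Egfr, Erbb2 and Erbb4 and histidine in Erbb3. Over these 54 bases, Egfr and Erbb2 were identical at 45 positions (83.3%), and Erbb4 matched Egfr at 31 (57.4%) and Erbb2 at 32 (59.3%). Erbb3 matched Egfr at 16 (29.6%), Erbb2 at 21 (38.9%) and Erbb4 at 24 (44.4%). In all 4 genes the stretch ends exon 19 and takes its last codon from exon 20. Its parts lie at chr11:16893056-16893106 and chr11:16896894-16896896 for Egfr, and at chr11:98433447-98433497 and chr11:98433892-98433894 for Erbb2, both on the plus strand. Erbb3 has its parts at chr10:128573175-128573225 and chr10:128572942-128572944, and Erbb4 at chr1:68250580-68250630 and chr1:68199025-68199027, both on the minus strand.

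The genes themselves differ in size and neighbours. Egfr (ENSMUSG00000020122.16) spans 16752203 to 16918158 of chromosome 11 and Erbb2 (ENSMUSG00000062312.5) spans 98412470 to 98437716 of the same chromosome. Erbb3 (ENSMUSG00000018166.8) lies at 128567523 to 128589652 of chromosome 10 and is annotated with 1 transcript. Erbb4 (ENSMUSG00000062209.15) takes 68032186 to 69108059 of chromosome 1, and the table holds 1 value for all its splice forms. Hbegf (ENSMUSG00000024486.5) lies on chromosome 18. Egfr overlaps its antisense gene Egfros, and Erbb2 overlaps Mien1 on the opposite strand. Whether strand was used is not stated, so reads of such partners cannot be told apart.

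The labels were checked first. Fgf17 stood at 69.0 to 173 FPKM in AAV-FGF17 libraries and at 0.560 to 9.86 FPKM in control libraries, without overlap. Control libraries 1 and 4 read 9.59 and 9.86 FPKM, and control libraries 2 and 3 read 1.43 and 0.560 FPKM. All 8 cardiomyocyte markers examined were present in every library, with sums of 8900 to 20250 FPKM. Control libraries 2 and 3 stood apart from the other 6. Mitochondrially encoded genes made up 44.5% and 30.9% of their FPKM sum, against 62.8% to 66.9% elsewhere, and they alone had positive scores on the first principal component (49.7% of the variance). FPKM divides by the library total. The median level of the nuclear tested genes was 5.065 and 5.446 FPKM in these 2 libraries, against 3.965 to 4.601 FPKM elsewhere, though not every nuclear gene read higher there. The median tested gene lay at -0.12 on the log2 scale in AAV-FGF17 hearts. Changes below are given as fitted and relative to that median gene, and without these libraries where that matters. That setting keeps control libraries 1 and 4, the controls with more Fgf17, and the source of their Fgf17 was not tested. Replicates are separate samples by their labels, which do not name separate animals, so the spread behind each p-value may in part be technical.

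Apart from Erbb2 and Erbb4, the genes kept the same order of level in every library. Hbegf was the most abundant, with a mean of 9.33 FPKM over the 8 libraries, above 74.9% of the listed genes. It exceeded Erbb3, the next, in 8 of 8 libraries, by 2.73-fold to 6.61-fold. Erbb3 had a mean of 2.68 FPKM and was above Erbb2 in 8 of 8 libraries, by 1.35-fold to 2.89-fold. Erbb2, at 1.28 FPKM, and Erbb4, at 1.20 FPKM, did not separate: Erbb2 was the higher in 4 libraries and Erbb4 in the other 4. Egfr was the least abundant, at 0.701 FPKM, above 7.36% of the listed genes and below Erbb4 in every library. The titles say hearts and name no part of them. In such levels, fewer cells of a type, less RNA per cell and a different part of the heart taken cannot be told apart.

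**Figure D1:**
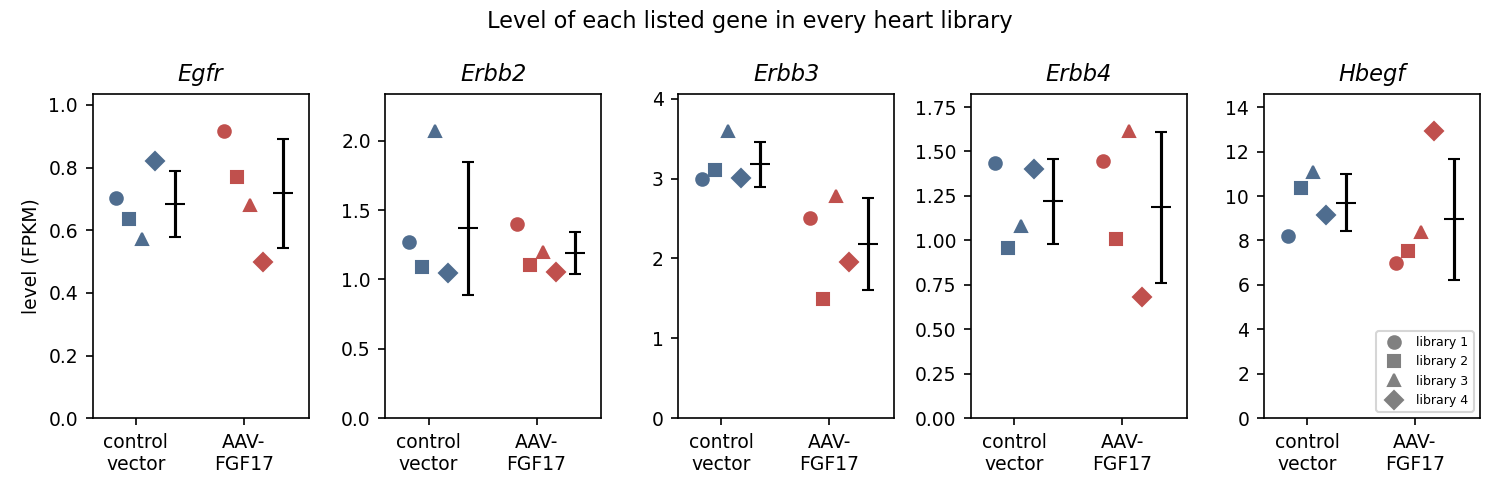
Level in FPKM (vertical axis) of the 5 listed genes in 4 control vector libraries (blue) and 4 AAV-FGF17 libraries (red), with the library number as the marker shape and the mean and SD in black. Erbb3 is the gene whose groups do not overlap, with 1.49 to 2.78 FPKM in AAV-FGF17 libraries and 2.998 to 3.597 in controls.

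Erbb3, the neuregulin receptor with little kinase activity, was the member that separated the groups. AAV-FGF17 libraries 1 to 4 measured 2.50, 1.49, 2.78 and 1.96 FPKM, and control libraries 1 to 4 measured 2.998, 3.11, 3.597 and 3.01 FPKM. All 4 AAV-FGF17 libraries lay below all 4 controls, with a gap of 0.219 FPKM between the nearest pair, and libraries 2 and 4 were the lowest. The controls were close together, at 3.18 ± 0.283 FPKM (SD, n = 4), and the AAV-FGF17 libraries were more spread, at 2.18 ± 0.572 FPKM (SD, n = 4). The AAV-FGF17 mean was 0.686 of the control mean. On the log2(FPKM + 1) scale, which understates the change of low genes, the change as fitted was -0.41 ± 0.14 (SE; 95% interval -0.73 to -0.09), or -0.29 relative to the median gene.

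The Erbb3 difference did not pass the threshold. Its limma p was 0.0184 unadjusted and 0.495 after Benjamini-Hochberg adjustment over 10025 genes. By the two-sided exact permutation test on this gene alone p was 0.0286, the smallest that 4 against 4 can give. Groups without overlap, lower in AAV-FGF17 hearts, were found in 4.64% of all tested genes, and in either direction in 5.64%. After median-of-ratios scaling the groups touched: AAV-FGF17 library 3 stood at 2.78 scaled FPKM, and so did control library 2 (exact permutation p = 0.0571). In that scaling 2.56% of all tested genes lay lower without overlap. The change was then -0.30 relative to the median gene. Rescaled without mitochondrially encoded genes, the groups overlapped (exact permutation p = 0.143). Control libraries 2 and 3, at 2.685 and 2.755 scaled FPKM, lay below AAV-FGF17 library 3, at 2.955. In that rescaling the limma p was 0.0935 unadjusted and 0.608 adjusted. The change as fitted was -0.27, with an interval from -0.59 to 0.054, or -0.31 relative to the median gene. Without control libraries 2 and 3, in values as deposited, the change was -0.33 relative to the median gene, with an adjusted limma p of 0.932. Both remaining controls lay above all 4 AAV-FGF17 libraries, an outcome that leaving libraries out of separated groups cannot change. Among those 6 libraries, 9.39% of all tested genes were lower without overlap, and 0.0599% passed limma.

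Marker lists of several cell types lay lower in AAV-FGF17 libraries, as Erbb3 did. One is that of the epicardium and mesothelium, the outer cell layer of the heart, which holds Wt1, Upk3b, Msln, Krt19, Krt8 and Tbx18, all 6 listed and none at 0 in any library. Their summed level was 7.23 to 15.1 FPKM in AAV-FGF17 libraries and 18.8 to 22.8 FPKM in controls, and 5 of the 6 lay below the median gene. Ordered by this sum, the AAV-FGF17 libraries ran 2, 4, 1 and 3 from lowest to highest, which was their order by Erbb3 as well. Not every single marker had that order. As deposited, control libraries 2 and 3 were the highest on both. After median-of-ratios scaling the sums still did not overlap, at 8.12 to 15.1 against 18.7 to 19.7 scaled FPKM. In that scaling the AAV-FGF17 libraries kept their order on both. The controls did not: library 2 was then the lowest control on both and library 1 the highest.

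**Figure D2:**
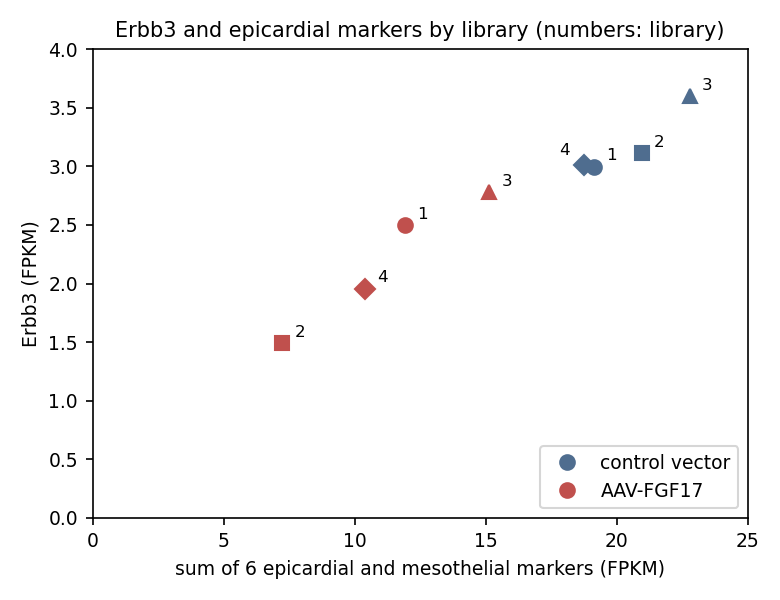
Erbb3 in FPKM (vertical axis) against the summed FPKM of 6 epicardial and mesothelial markers (horizontal axis), 1 point per library, numbered by library and coloured by group. The AAV-FGF17 points lie at 7.23 to 15.1 on the horizontal axis, left of the controls at 18.8 to 22.8.

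Single markers of that list behaved unequally. Msln, mesothelin, measured 3.41, 0.497, 3.76 and 1.59 FPKM in AAV-FGF17 libraries 1 to 4, and 3.98, 4.66, 5.14 and 3.96 FPKM in control libraries 1 to 4. As with Erbb3, libraries 2 and 4 of the AAV-FGF17 group were the lowest and the groups did not overlap. Upk3b and Krt19, further mesothelial markers, also separated the groups as deposited. They stood at 2.58 ± 1.15 against 4.63 ± 0.693 FPKM and at 2.91 ± 1.07 against 6.98 ± 2.07 FPKM (SD, n = 4 each). For Upk3b the nearest libraries were AAV-FGF17 library 1, at 3.58 FPKM, and control library 2, at 3.74 FPKM. Median-of-ratios scaling divides these by 0.982 and 1.12, after which the Upk3b groups overlap. As deposited, 4.64% of all tested genes lay lower without overlap. Wt1, an epicardial transcription factor, overlapped over most of its range, with 0.453 to 1.62 FPKM in AAV-FGF17 libraries and 0.482 to 1.90 FPKM in controls. Its highest AAV-FGF17 value was in library 2, where Erbb3 was lowest. Within that group Krt19 and Krt8 were lowest in library 1, at 1.72 and 0.494 FPKM. Upk3b and Tbx18 were lowest in libraries 2 and 4 of that group, as Erbb3 was. None of the 6 passed limma, and the smallest adjusted p among them was 0.495.

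Schwann cells, the glia of nerves, are a known site of ErbB3, and 6 of the 7 markers used for these cells have a row, with none at 0. Their summed level was 13.3 to 20.2 FPKM in AAV-FGF17 libraries and 14.8 to 19.95 FPKM in controls, so the groups overlapped. Only Mal and S100b reached the fit, at 0.18 and 0.016 relative to the median gene. After median-of-ratios scaling S100b lay below it, at -0.0068. Fitted without the filter on low values, Mbp lay below the median gene (-0.12), and Sox10, Ncam1 and L1cam lay above it. Mal, a membrane protein also made by other cells, supplied the largest part of that sum, and Gfap was not analysed. The 5 atrial markers, all listed and none at 0, summed to 1882, 563, 1848 and 851 FPKM in AAV-FGF17 libraries 1 to 4 and to 1389 to 3038 FPKM in controls, again lowest in AAV-FGF17 libraries 2 and 4. Relative to the median gene all 5 were on the lower side (list median -0.83 on the log2 scale, against -0.43 for the epicardial and mesothelial list). The 7 endothelial markers, all listed and none at 0, summed to 109 to 142 FPKM against 146 to 188 FPKM in controls, without overlap, and 5 of the 7 lay below the median gene (median -0.22).

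Further lists lay on the same side, with sums that overlapped between the groups. White adipocyte markers summed to 164 to 274 FPKM in AAV-FGF17 libraries and 247 to 444 FPKM in controls, and all 5 tested lay below the median gene (median -0.83). Smooth muscle and pericyte markers summed to 235 to 303 against 288 to 347 FPKM, with 5 of 6 below the median gene (median -0.52). For brown adipocyte markers the sums were 257 to 325 against 282 to 419 FPKM, with all 4 tested below it (median -0.37). Cardiomyocyte markers summed to 8900 to 9627 against 8939 to 20250 FPKM, with 7 of 8 below the median gene (median -0.35). In each of these lists control libraries 1 and 4 lay inside the AAV-FGF17 range, and control libraries 2 and 3 lay above libraries 1 and 4. Libraries 1 and 4 summed to 247 and 248 FPKM for white adipocyte and 293 and 288 for smooth muscle and pericyte markers. They summed to 282 and 283 FPKM for brown adipocyte and 9165 and 8939 for cardiomyocyte markers. Fibroblast markers lay on the other side as a list (median 0.23, 3 of 7 below), at 151 to 187 against 142 to 152 FPKM. Macrophage markers overlapped at 119 to 197 against 141 to 215 FPKM (median 0.12, 2 of 6 below). With all controls included, the lower position was shared by marker lists of several cell types. The part of any of these cells in the Erbb3 difference was not tested.

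Erbb2, the receptor without a ligand, gave overlapping groups. It measured 1.40, 1.104, 1.20 and 1.05 FPKM in AAV-FGF17 libraries 1 to 4, and 1.27, 1.09, 2.07 and 1.04 FPKM in control libraries 1 to 4. The groups overlapped, and control library 3 was the highest of all. The change as fitted was -0.10 ± 0.14 (SE; 95% interval -0.42 to 0.22; limma adjusted p = 0.748), or 0.02 relative to the median gene. Without control libraries 2 and 3 the value as fitted turned to 0.02. The interval leaves room for a change in either direction, so a p above the threshold does not show that levels were alike.

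Erbb4, the neuregulin receptor of cardiomyocytes, varied more within the groups than between them. AAV-FGF17 libraries 1 to 4 measured 1.44, 1.01, 1.62 and 0.680 FPKM, and control libraries 1 to 4 measured 1.44, 0.958, 1.08 and 1.40 FPKM. The highest and the lowest library were both from AAV-FGF17 hearts, 2.38-fold apart over all 8. The change was -0.04 ± 0.16 (SE; 95% interval -0.38 to 0.31; limma adjusted p = 0.916) as fitted and 0.08 relative to the median gene. Without control libraries 2 and 3, which had less Erbb4 than the other controls, the change as fitted was -0.17 (limma adjusted p = 0.938). Cardiomyocyte markers ran the other way in those controls, summing to 14290 and 20250 FPKM in libraries 2 and 3 against 9165 and 8939 FPKM in libraries 1 and 4.

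Egfr, the receptor of EGF and HB-EGF, was below the mean of 1 FPKM required for the fit across genes and was compared by the exact permutation test alone. It measured 0.917, 0.771, 0.682 and 0.4998 FPKM in AAV-FGF17 libraries 1 to 4, and 0.704, 0.636, 0.573 and 0.822 FPKM in control libraries 1 to 4. The groups overlapped over most of their range. The mean difference on the log2(FPKM + 1) scale was 0.03 (two-sided exact permutation p = 0.800), or 0.14 relative to the median gene. AAV-FGF17 library 4 held the lowest value, as it did for Erbb4.

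**Figure D3:**
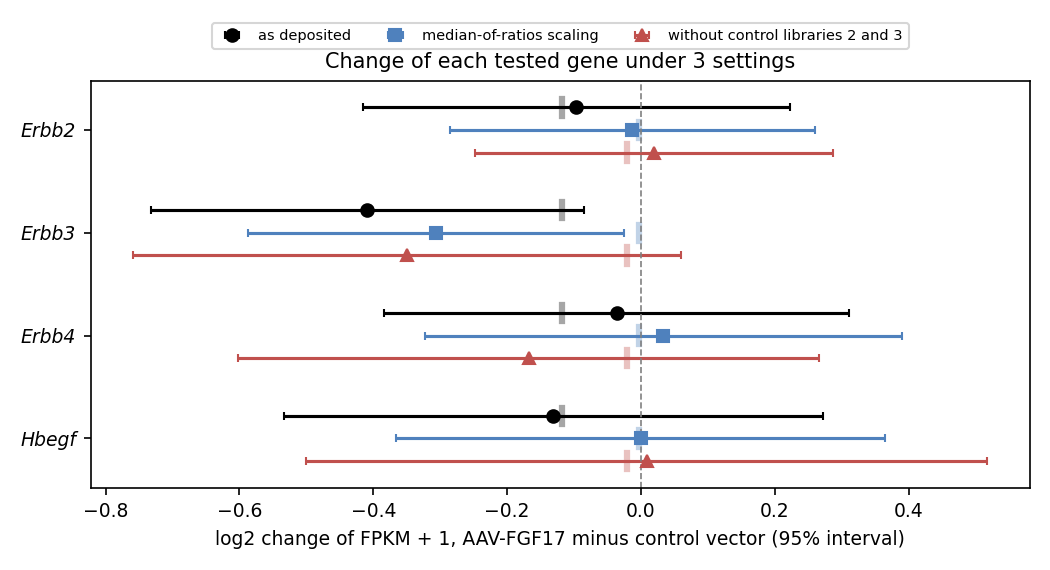
Log2 change of FPKM + 1, AAV-FGF17 minus control vector (horizontal axis), with its 95% interval for the 4 tested genes as deposited (black), after median-of-ratios scaling (blue) and without control libraries 2 and 3 (red). Short pale bars mark the median gene of each setting, and Erbb3 lies to the left of it each time, by -0.29, -0.30 and -0.33.

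Hbegf encodes the membrane-bound precursor of HB-EGF, which ADAM proteases release and which binds EGFR and ErbB4. It measured 6.97, 7.54, 8.39 and 12.9 FPKM in AAV-FGF17 libraries 1 to 4, and 8.19, 10.4, 11.1 and 9.15 FPKM in control libraries 1 to 4. AAV-FGF17 library 4 was the highest of all, the other 3 of its group lay in or below the control range, and the groups overlapped. The change was -0.13 ± 0.18 (SE; 95% interval -0.53 to 0.27; limma adjusted p = 0.728) as fitted and -0.01 relative to the median gene. Without AAV-FGF17 library 4 it was -0.30 as fitted, or -0.19 relative to the median gene, and it still missed the threshold.

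Since FPKM shares within a library do not depend on its scaling, the make-up of the receptor transcripts was also compared. Erbb3 made up 40.0%, 34.1%, 44.3% and 46.7% of the summed FPKM of the 4 receptors in AAV-FGF17 libraries 1 to 4. In control libraries 1 to 4 it made up 46.8%, 53.7%, 49.1% and 48.0%. The groups were next to each other without overlap, with AAV-FGF17 library 4 and control library 1 almost level. Erbb2 held 19.1% to 25.2% against 16.6% to 28.3% in controls, Erbb4 16.2% to 25.8% against 14.8% to 22.4%, and Egfr 10.9% to 17.6% against 7.82% to 13.1%. Those 3 overlapped between the groups. The shares are given as a description, with no test.

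**Figure D4:**
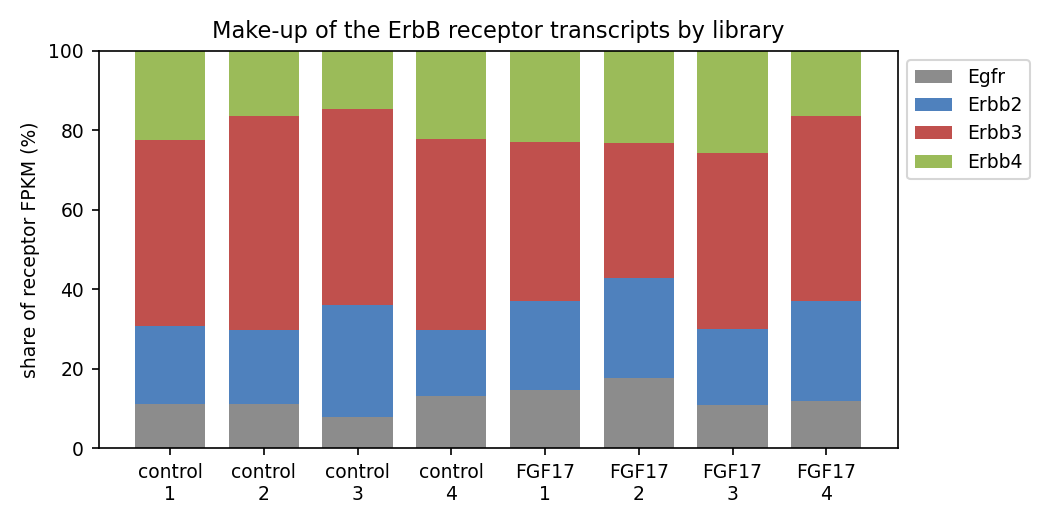
Share of the summed FPKM of Egfr, Erbb2, Erbb3 and Erbb4 (vertical axis, percent) in each of the 8 libraries (horizontal axis). Erbb3 takes the largest share in every library, from 34.1% in AAV-FGF17 library 2 to 53.7% in control library 2.

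Across all members, 0 of the 4 tested passed limma at an adjusted p of 0.05, and 0% of the 10025 tested genes did. At an unadjusted p under 0.05 there was 1 of the 4, Erbb3, against 9.34% of all tested genes and 7.98% on the lower side. Erbb2 and Erbb4 lay above the median gene, Erbb3 and Hbegf below. The median of the 4 was 0.0042 on this relative log2 scale.

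The other ligands of the family were thinly represented. Of 11 ErbB ligand genes, Egf, Btc and Hbegf have a row, and Egf and Btc were too low to enter the fit. Egf, epidermal growth factor, measured 0.599, 0.373, 0.885 and 0.427 FPKM in AAV-FGF17 libraries and 0.785, 1.02, 1.43 and 0.544 FPKM in controls. The groups overlapped, with the highest values in control libraries 2 and 3. Btc, betacellulin, a ligand of EGFR and ErbB4, measured 0.317 to 0.686 FPKM in AAV-FGF17 libraries and 0.421 to 0.624 FPKM in controls.

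Genes that release, restrain or relay the ErbB signal were read through 4 further lists with 61 tested genes besides the members. None passed limma at an adjusted p of 0.05 in either direction. At an unadjusted p under 0.05, 0 were higher and 5 lower (8.20%). Among all tested genes, 1.36% were higher and 7.98% lower at that p. Split by the median gene, 32 of the 61 lay higher and 29 lower, and the median of the 61 was 0.0058 on this relative log2 scale.

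**Figure D5:**
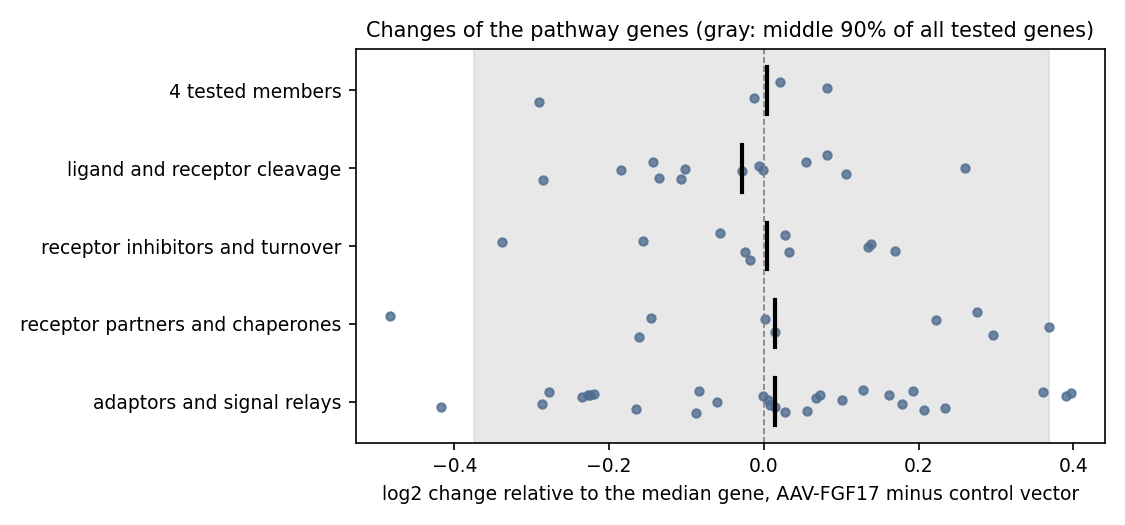
Log2 change relative to the median gene (horizontal axis), 1 point per tested gene, for the members and 4 pathway lists (rows), with the list median as a black bar. The gray band holds the middle 90% of all tested genes, from -0.37 to 0.37, and the list medians lie between -0.03 and 0.02.

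Among the proteases that shed ligands or cut the receptors, 9 of 13 tested genes lay below the median gene. Adam15, a metalloprotease, measured 5.11 ± 0.979 FPKM with AAV-FGF17 and 7.06 ± 1.19 FPKM with the control vector (SD, n = 4 each), and the groups overlapped. Ncstn, the nicastrin subunit of gamma-secretase, which cuts ErbB4 within the membrane, stood at 9.12 ± 1.122 against 11.6 ± 2.16 FPKM. The 2 most abundant were Adam9, at 16.2 ± 0.701 against 19.1 ± 2.44 FPKM, and Psenen, another gamma-secretase subunit, at 14.6 ± 2.85 against 13.2 ± 2.55 FPKM. Without control libraries 2 and 3 the fitted log2 change went from -0.30 to -0.12 for Ncstn and from -0.22 to -0.11 for Adam9.

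Of 10 tested inhibitors and turnover genes, 5 lay on each side of the median gene. Stub1, a ubiquitin ligase that acts on ErbB2 bound to its chaperone, measured 39.7 ± 3.75 against 56.1 ± 14.5 FPKM. The fitted log2 change of Stub1 was -0.46 ± 0.17 (SE; adjusted p by limma 0.495), and -0.15 without control libraries 2 and 3. Usp8, a deubiquitinase of endosomal receptor sorting, measured 19.6 ± 3.07 against 23.9 ± 2.61 FPKM.

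Receptor partners and chaperones lay on both sides, with 6 of 9 above the median gene. Itga7, a laminin-binding integrin subunit of muscle, measured 5.46 ± 0.745 against 9.70 ± 5.54 FPKM. The fitted log2 change of Itga7 was -0.60, and -0.053 without control libraries 2 and 3. Hsp90ab1, the chaperone that stabilises ErbB2, measured 395 ± 37.9 against 487 ± 135 FPKM, and its co-chaperone Cdc37 14.4 ± 0.752 against 18.3 ± 5.74 FPKM. Cd9, a tetraspanin that binds the HB-EGF precursor, measured 52.5 ± 7.01 against 49.0 ± 8.27 FPKM. The direction of all 3 turned without control libraries 2 and 3, with fitted log2 changes from -0.26 to 0.076 for Hsp90ab1, from -0.28 to 0.017 for Cdc37 and from 0.10 to -0.072 for Cd9.

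Adaptors and relays made up the longest list, with 17 of 29 tested genes above the median gene. Ptpn11, the phosphatase SHP2, which passes the receptor signal to Ras, was the list's gene without overlap of the groups, at 23.5 ± 1.92 against 30.3 ± 5.10 FPKM. The fitted log2 change of Ptpn11 was -0.34 ± 0.13 (SE; adjusted p by limma 0.495), and -0.15 without control libraries 2 and 3. Plcg1, phospholipase C gamma 1, measured 5.38 ± 0.801 against 8.49 ± 2.90 FPKM. The fitted log2 change of Plcg1 was -0.54, and -0.24 without control libraries 2 and 3. Akt1, the kinase downstream of PI3K, measured 21.4 ± 0.876 against 28.6 ± 11.3 FPKM. The fitted log2 change of Akt1 went from -0.34 to -0.10 without control library 3 alone, and to -0.026 without control libraries 2 and 3.

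Genes with the pattern most like each member were ranked by Pearson r of log2 values over the 8 libraries after median-of-ratios scaling. They are given with no p, since they are the top 2 of 10024 genes and control libraries 2 and 3 or single libraries can set such an r. For Erbb3 they were Mlana (r = 0.976), a melanocyte antigen, and Msln (r = 0.969). Mlana measured 5.84, 0.370, 5.59 and 1.29 FPKM in AAV-FGF17 libraries 1 to 4, and 6.96, 5.26, 10.5 and 9.20 FPKM in control libraries 1 to 4. Libraries 2 and 4 of the AAV-FGF17 group were the lowest for Mlana, Msln and Erbb3.

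For Erbb2 the closest patterns were those of Fgfr1 (r = 0.960), an FGF receptor, and H13 (r = 0.960), a signal peptide peptidase. Fgfr1 measured 2.98 ± 0.220 against 3.42 ± 0.651 FPKM (AAV-FGF17 against control), and control library 3 was the highest for Fgfr1, H13 and Erbb2. For Erbb4 they were Ccdc186 (r = 0.981) and Zfc3h1 (r = 0.973), a factor of nuclear RNA decay. Ccdc186 measured 7.98, 6.21, 8.05 and 5.44 FPKM in AAV-FGF17 libraries, and like Erbb4 it was low in libraries 2 and 4. For Hbegf they were Txn1 (r = 0.949), thioredoxin, and Bex1 (r = 0.939), with Txn1 at 33.9 ± 5.36 FPKM against 37.9 ± 4.95.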

How the data were processed

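The labels' protocols give Trizol extraction of total RNA and standard Illumina libraries for all 8 samples. Tools named in the submitters' processing notes, without order or settings, are HISAT2 2.1.0, StringTie 1.3.3, cutadapt 1.17 and FastQC 0.11.7, with the genome build GRCm38. The deposited values are FPKM, per the file headers, 1 column per library. Columns were matched to samples by title, and 0 were left unassigned. The sequencing depth is unknown: values of 1032 genes with 1 annotated transcript showed whole-read steps in 0 of 8 libraries, and no count test was run. An empty line was left out. The members and lists were chosen with earlier results of these data known. Part of the Schwann cell marker list is not reported here and was left out of its sum.

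Expression was compared as log2(FPKM + 1) in the 10025 genes whose mean reached 1 FPKM. The tool was limma 3.58.1 (R 4.3.3) with a trended variance, without covariates, and p-values were adjusted by Benjamini-Hochberg (threshold 0.05). The fit was tested on simulated data. Single values were compared by two-sided exact permutation. Alternatives were other pseudocounts, filters, scalings, weights, a replicate block and left-out libraries. From each pathway list the 2 genes of smallest p and the 2 most abundant were named, and for each tested member the 2 genes of most similar pattern. Annotation and coding sequence came from GENCODE M21 on GRCm38.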

Additional observations from a re-analysis of the deposited data

Results flagged for a closer look

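Of 42 groups of 4 libraries examined, for the 5 listed members and 16 genes described beside them, 1 held a library far from the other 3. Bex1, a gene of similar pattern to Hbegf, stood at 4.001 FPKM in AAV-FGF17 library 4, where Hbegf was also highest, against 1.67 to 2.05 FPKM in the other 3 of its group. Chance alone flags about 1 in 20 such groups.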

How the results depend on the processing

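Erbb3 stayed lower and past no threshold under all 20 alternatives, with log2 changes as fitted from -0.56 to -0.22 and limma adjusted p from 0.290 to 0.932. Its groups did not overlap under 17 of them, but only rescaling the values could make separated groups overlap. The other alternatives kept the values or left libraries out. Of the rescaled ones, only median-of-ratios scaling without control libraries 2 and 3 kept the groups apart. That setting leaves out control library 2, the only control that met the AAV-FGF17 range in that scaling, so its outcome was fixed in advance. The number of members without overlap fell from 1 to 0 after median-of-ratios scaling, after rescaling without mitochondrially encoded genes, and after median-of-ratios scaling without AAV-FGF17 library 2. No member passed the threshold under any alternative. Other members changed sign as fitted. Without control libraries 2 and 3, Egfr stood at -0.043, Erbb2 at 0.020 and Hbegf at 0.0083, and with median-of-ratios scaling as well at -0.030, 0.035 and 0.035. Rescaled without mitochondrially encoded genes, Erbb2 stood at 0.020, Erbb4 at 0.059 and Hbegf at 0.047. With median-of-ratios scaling Erbb4 stood at 0.034, and without AAV-FGF17 library 2 as well Erbb4 stood at 0.049 and Hbegf at 0.030. Array quality weights gave 0.037 for Erbb2. The cause was not tested. The combinations of scaling and left-out libraries were chosen after seeing the data.

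Leaving out 1 library at a time gave log2 changes of -0.030 to 0.088 for Egfr, -0.16 to 0.035 for Erbb2, -0.50 to -0.30 for Erbb3, -0.13 to 0.083 for Erbb4 and -0.30 to -0.036 for Hbegf. Over all genes, 0 passed the threshold as deposited and 936 had an unadjusted p under 0.05, against 5 past it with array quality weights, 6 without control libraries 2 and 3, 3 with median-of-ratios scaling as well, and 0 to 4 with 1 library left out. At an unadjusted p under 0.05, 136 genes were higher and 800 lower as deposited, and 429 higher and 407 lower after median-of-ratios scaling. The replicate numbers did not pair the libraries: deviations of libraries with the same number correlated at -0.11 to 0.022. A replicate block left 0 genes past the threshold and gave Erbb3 an unchanged log2 change of -0.41 (limma adjusted p = 0.509). The median half-width of the 95% interval over all tested genes was 0.334, which limits what 4 against 4 can resolve.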

Other observations

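Because Mlana had the pattern most like that of Erbb3, other pigment cell genes were looked up after these values were seen. Dct, dopachrome tautomerase, measured 1.04, 2.18, 1.44 and 3.15 FPKM in AAV-FGF17 libraries 1 to 4 and 0.588 to 1.86 FPKM in controls, so it was highest in the libraries where Mlana was lowest. Kit, a receptor of melanocytes and mast cells, measured 0.147 to 0.396 FPKM against 0.368 to 0.770 FPKM, and Mitf, a transcription factor that cardiomyocytes also make, 9.44 to 11.6 against 10.9 to 12.1 FPKM. None of these 3 was lowest in both AAV-FGF17 libraries 2 and 4, as Mlana was.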
